A study of Homo sapiens with 4 samples.

Results

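Chromosome 8 carries 2 neighboring stretches whose genes are described here, 8p21 on the short arm and 8p11-q13, which spans the centromere. A gene was a member if its RefSeq start on GRCh38 lay between 17.64 and 28.77 Mb (8p21, first to last member) or between 38.16 and 73.29 Mb (8p11-q13) and if its FPKM (fragments per kilobase of transcript, scaled to library size) reached 1 in at least 2 of the 4 libraries. Of 184 rows of the expression table in these bounds, 114 were members, 45 in 8p21 and 69 in 8p11-q13, out of 10726 genes that passed the same filter over the whole table. A further 55 rows were below the filter, and 15 were set aside by symbol because they belong to other gene families, 11 of them above the filter and 4 below it. The stretches were selected on the difference between WT cells and ZCCHC4 KO1 cells in these same libraries, so their differences between the groups are a description and carry no test.

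RNA-seq was performed on 2 libraries of WT cells, labelled HepG2 with a wild-type genotype, and 2 libraries of ZCCHC4 KO1 cells, labelled HepG2 with a ZCCHC4 knockout. All 4 were labelled untreated and came from cells grown in DMEM with fetal bovine serum. HepG2 is a line of cells from a liver tumor, and ZCCHC4 is a zinc finger protein that methylates an adenosine of ribosomal RNA. ZCCHC4 KO1 is 1 of the knockout cell lines made with CRISPR/Cas9 and the only one analysed here, so an effect of the knockout and a property of this line cannot be told apart. Nothing in the labels says that the 2 libraries of a group came from separate cultures, so the spread between them may be technical.

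Human chromosomes are read as 2 arms, p and q, joined at the centromere, and neighboring genes on an arm share a piece of DNA but seldom a function. A gain or loss of a piece of a chromosome changes the number of copies of every gene on it, and the RNA level of many genes follows the number of copies, although feedback and limits on transcription dampen some of them. Loss of short-arm DNA and gain of long-arm DNA of chromosome 8 are recurrent in hepatocellular carcinoma, the tumor that HepG2 is used to model. Genes of 8p21 include the matrix enzyme LOXL2 and the mitotic kinase PBK, and those of 8p11-q13 include the growth factor receptor FGFR1 and the DNA repair kinase PRKDC. DNA was not analysed here.

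FPKM values summed to between 512417.0 and 565198.6 per library, and since they carry no read totals the depth is unknown. ZCCHC4 was at an FPKM of 7.22 and 5.44 in WT, against 1.08 and 2.29 in ZCCHC4 KO1, so the groups did not overlap. Of 14 hepatocyte markers, 8 were listed, none was at 1 or more in both WT libraries, and their sum was 0.55 and 0.63 in WT, against 0.85 and 0.75 in ZCCHC4 KO1. AFP, alpha-fetoprotein, which HepG2 cells are known to secrete, was at 0.05 or less in each library. These levels go against the HepG2 label, and the libraries are called HepG2 only as labelled. Keratins KRT7, KRT8 and KRT18 made up nearly the whole of the epithelial marker sum, at 5243.62 and 6095.28 in WT, against 9260.13 and 7069.52 in ZCCHC4 KO1. The other epithelial markers, KRT19, EPCAM and CDH1, were at 0.6 or less in each library. Fibroblast markers summed to 20.19 and 18.99 in WT, against 8.61 and 11.81 in ZCCHC4 KO1. COL3A1 made up most of each sum, at 15.44 and 14.76 in WT, against 5.54 and 6.75 in ZCCHC4 KO1. LUM, at 1.86 and 1.39 in WT, against 1.81 and 3.79 in ZCCHC4 KO1, did not separate the groups. Blood markers summed to 14.84 and 16.78 in WT, against 11.97 and 11.87 in ZCCHC4 KO1. Almost all of this came from CD68, with CD45 (PTPRC) at 0.12 or less. The part of these marker levels in the results was not tested.

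Genes of both stretches were lower in ZCCHC4 KO1 cells as a body. In 8p21, 41 of 45 members had a log2 fold change (ZCCHC4 KO1 over WT, on log2(FPKM + 1)) below 0, and in 8p11-q13 66 of 69 did, where 53.2% of all tested genes did. The median log2 fold change was -0.38 in 8p21 and -0.57 in 8p11-q13, beside -0.03 over all tested genes. In terms of FPKM, the median member of 8p21 was in ZCCHC4 KO1 at 72.8% of its mean level in WT (quartiles 57.8 and 88.3%), and the median member of 8p11-q13 at 63.2% (quartiles 50.6 and 74.2%). Since RNA was measured in bulk, fewer cells with RNA of a gene and less RNA per cell cannot be told apart.

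The difference was moderate and shared rather than carried by a few genes. Of the 114 members, 26 were below 50% of their WT mean in ZCCHC4 KO1, 49 lay between 50 and 75%, 32 between 75 and 100%, and 7 above 100%. A log2 fold change of -1 or less was found for 7 members of 8p21 and 12 of 8p11-q13, where 3.84% of all tested genes reached it. The middle of the members' values lay from -0.71 to -0.17 in 8p21 and from -0.85 to -0.33 in 8p11-q13 (quartiles), and that of all tested genes from -0.29 to 0.21.

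**Figure D1:**
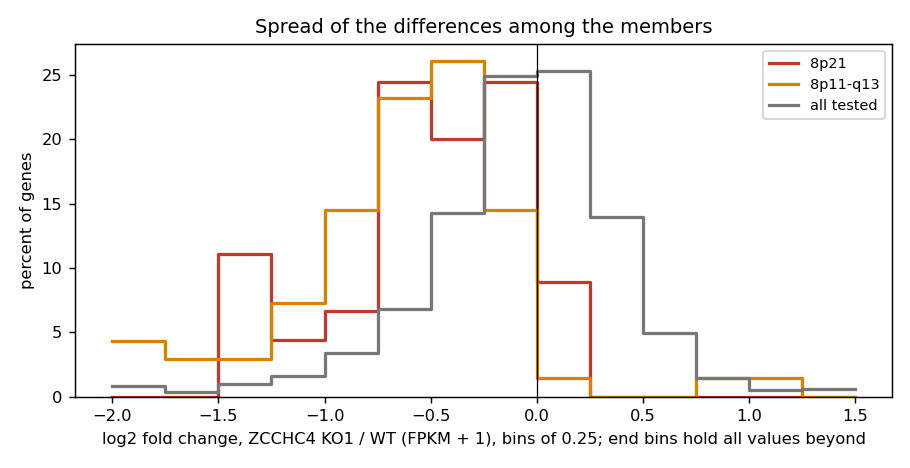
Percent of genes (y axis) by log2 fold change between ZCCHC4 KO1 and WT on log2(FPKM + 1) (x axis, bins of 0.25, values beyond the ends in the end bins), for the 45 members of 8p21, the 69 members of 8p11-q13 and all 10726 tested genes. Both member lines sit to the left of the line for all genes, with medians of -0.38 and -0.57 beside -0.03.

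Members were also compared library by library, without a mean. Each ZCCHC4 KO1 library was lower than each WT library for 30 of 45 members of 8p21 and 44 of 69 of 8p11-q13, where 28.5% of all tested genes showed this. The reverse, each ZCCHC4 KO1 library above each WT library, was seen for 0 members of 8p21 and 2 of 8p11-q13 and for 23.1% of all tested genes. For the other 38 members the groups overlapped. At the thresholds the study used (P below 0.05, FDR below 0.001, fold change of at least 2), limma called 0 members. Of all tested genes it called 0.0746% in either direction and 0.0559% as lower. The paper reports many more genes at these thresholds from its own analysis, so these counts belong to this fit only. At an FDR below 0.05 with no limit on size, 19 members were called lower and 1 higher, where 4.48% of all tested genes were called lower and 1.5% higher, and 53 of 114 members had an unadjusted p under 0.05, as did 22.9% of all tested genes. Since the stretches were chosen on this contrast, nothing is read from these counts.

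The level of each stretch differed between libraries of 1 group as well. The median member of 8p11-q13 stood at 0.48 in WT replicate 1, 0.12 in WT replicate 2, -0.50 in ZCCHC4 KO1 replicate 1 and -0.08 in ZCCHC4 KO1 replicate 2, in log2 units relative to the mean of the 4 libraries. The corresponding values for 8p21 were 0.30, 0.20, -0.25 and -0.16. In both stretches the 2 WT libraries were above the 2 ZCCHC4 KO1 libraries, but in 8p11-q13 WT replicate 2 and ZCCHC4 KO1 replicate 2 stood close together. The pooled SD within groups was 0.065 for 8p21 and 0.28 for 8p11-q13. Taken as pairs of 1 ZCCHC4 KO1 library and 1 WT library, the median difference ranged from -0.58 to -0.32 in 8p21 and from -0.98 to -0.21 in 8p11-q13. The pairs were at -0.21 to 0.07 over all tested genes.

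**Figure D2:**
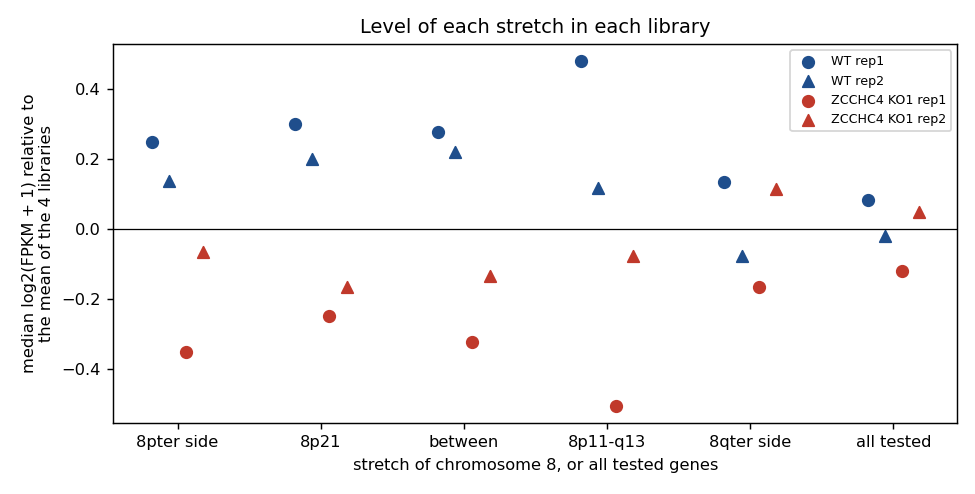
Median log2(FPKM + 1) of each stretch of chromosome 8 and of all tested genes (x axis) in each of the 4 libraries, relative to the mean of the 4 libraries (y axis). Circles are replicate 1 and triangles replicate 2, with WT in blue and ZCCHC4 KO1 in red. On the 8pter side, in 8p21, between the stretches and in 8p11-q13 both blue symbols lie above both red ones, whereas on the 8qter side and over all tested genes the groups are mixed.

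The difference did not stop at the bounds that define the stretches. On the 8pter side, from the chromosome end to 17.58 Mb, the median of the 25 tested genes was -0.49, and 20 were lower. In the interval from 28.89 to 38.11 Mb that separates 8p21 from 8p11-q13, 24 of 25 were lower, with a median of -0.47. Beyond 8p11-q13 toward the long-arm end, the first 25 tested genes, from 73.42 Mb on, had a median of -0.37 with 22 lower, and the other 161, from 90.62 Mb on, a median of 0.05 with 74 lower. With the trend on GC content taken out of each library, these medians were -0.45 for the 8pter side, -0.40 for the interval, -0.45 for the first 25 genes and 0.05 for the rest, beside -0.41 in 8p21 and -0.49 in 8p11-q13. The point at which the medians came close to that of all genes thus lay inside the long arm, past the upper bound of 8p11-q13. The cut after 25 genes was set after the values had been seen.

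Genes at the edges differed among themselves. PDGFRL, the last tested gene before 8p21, was at an FPKM of 2.46 and 3.12 in WT, against 1.2 and 1.0 in ZCCHC4 KO1. MTUS1, a microtubule-associated protein and the first member, was at 9.21 and 4.09 in WT, against 3.22 and 6.46 in ZCCHC4 KO1, so that its groups overlapped. INTS9, a subunit of the Integrator complex and the last member of 8p21, was at 8.25 and 8.68 in WT, against 9.64 and 8.27 in ZCCHC4 KO1. HMBOX1, just outside, was at 2.35 and 1.67 in WT, against 1.45 and 2.23 in ZCCHC4 KO1, and neither gene separated the groups.

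ASH2L and LSM1 lie on either side of the lower bound of 8p11-q13. ASH2L was at 16.11 and 16.89 in WT, against 11.69 and 12.74 in ZCCHC4 KO1, and LSM1, part of a ring that binds mRNA marked for decay, at 32.87 and 36.82 in WT, against 25.80 and 28.61 in ZCCHC4 KO1. Both were lower in each ZCCHC4 KO1 library than in each WT library. At the upper bound the order was broken by RDH10, the last member, and STAU2, the next gene, which were higher in ZCCHC4 KO1. STAU2 was at 10.86 and 7.47 in WT, against 10.90 and 16.27 in ZCCHC4 KO1. The longest run of tested genes with a log2 fold change below 0 held 47 genes, from GTF2E2 at 30.58 Mb to SPIDR at 47.26 Mb. It crossed both the lower bound of 8p11-q13 and the centromere, but it held WRN, at only -0.0115, and SLC20A2, at only -0.018. With median-ratio scaling, quantile normalization and GC removal SLC20A2 was at 0.044, 0.097 and 0.003, which broke the run there. In the interval between the stretches 24 of 25 genes were lower, but only 19 with quantile normalization, so SLC20A2 need not be the only break. The members of 8p11-q13 before the widest gap in tested genes (4.12 Mb, between HGSNAT and SPIDR) had a median of -0.54 with 27 of 27 lower, and those after it a median of -0.57 with 39 of 42 lower.

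**Figure D3:**
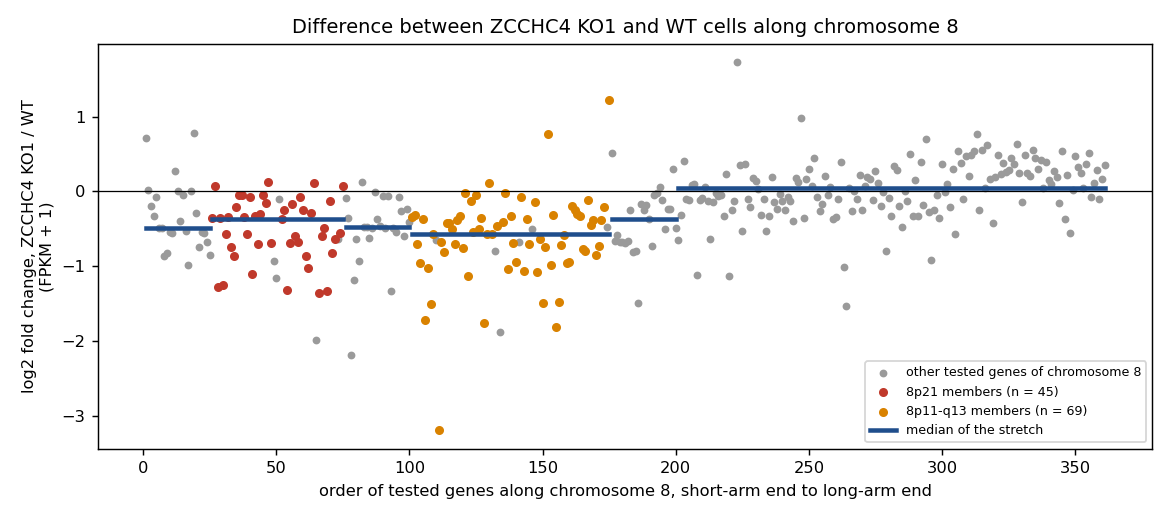
Log2 fold change between ZCCHC4 KO1 and WT on log2(FPKM + 1) (y axis) of the tested genes of chromosome 8 in their order from the short-arm end to the long-arm end (x axis, rank). Members of 8p21 are red and members of 8p11-q13 orange, other genes, including those set aside by symbol, are grey, and blue bars are the medians of the stretches, from -0.49 at the left end to 0.05 over the last 161 genes.

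Among the 23 chromosomes compared, the medians of all tested genes ran from -0.34 for chromosome X to 0.16 for chromosome 19. Chromosome 8 as a whole stood at -0.24, after chromosomes X and 21, and its 361 tested genes, members included, were lower in 71.5% of cases. This share was not particular to it. The shares ran from 30.1% for chromosome 19 to 71.6% for chromosome 22, with X, 6 and 18 at 71.3, 70.2 and 70.1%. The median of 8p11-q13, at -0.57, lay below that of every whole chromosome, and so did that of 8p21, at -0.38, but both stretches were selected for their low values.

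The largest differences in 8p21 were those of SCARA3, PBK, LOXL2, ASAH1 and CSGALNACT1. SCARA3, a scavenger receptor-like protein that protects cells from oxidative damage, was at an FPKM of 81.80 and 92.42 in WT, against 33.54 and 32.88 in ZCCHC4 KO1, a log2 fold change of -1.36 (standard error 0.13). PBK, a kinase active in mitosis, was at 37.05 and 28.80 in WT, against 9.27 and 16.31 in ZCCHC4 KO1 (log2 fold change -1.34, standard error 0.28). LOXL2, which oxidizes lysines and so crosslinks collagen, was at 88.87 and 96.62 in WT, against 38.35 and 34.68 in ZCCHC4 KO1 (-1.32, standard error 0.13). The ZCCHC4 KO1 mean of these 3 genes was at 38.1, 38.9 and 39.4% of the WT mean. They were picked as the largest differences of the stretch, so the likeness of these shares is not read as a result.

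ASAH1, the acid ceramidase of lysosomes, was at 18.06 and 14.41 in WT, against 4.84 and 7.62 in ZCCHC4 KO1 (log2 fold change -1.27, standard error 0.25). CSGALNACT1, which starts the chains of chondroitin sulfate, was at 10.59 and 8.83 in WT, against 2.88 and 4.18 in ZCCHC4 KO1 (-1.25, standard error 0.23). SLC39A14, a carrier of zinc, manganese and iron, was at 65.12 and 60.24 in WT, against 24.82 and 32.83 in ZCCHC4 KO1 (-1.11, standard error 0.17). The 6 genes had no overlap between the groups. SORBS3, an adaptor at cell-matrix contacts and, with LOXL2 and SCARA3, among the 3 most abundant members of 8p21, was at 56.59 and 65.83 in WT, against 41.79 and 32.75 in ZCCHC4 KO1.

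Only 4 members of 8p21 had a log2 fold change above 0, none above 0.12, and in all 4 the groups overlapped or touched. BIN3, a membrane-bending protein, was at 6.91 and 6.31 in WT, against 7.68 and 6.91 in ZCCHC4 KO1. PTK2B, a kinase related to focal adhesion kinase, was at 1.39 and 1.58 in WT, against 1.58 and 1.79 in ZCCHC4 KO1. PCM1, which organizes the satellites around centrosomes, was at 4.14 and 1.58 in WT, against 2.04 and 3.8 in ZCCHC4 KO1, and INTS9 is given above with the edges. For PCM1 the distance between replicates exceeded that between groups.

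The lowest value in 8p11-q13 was that of TCIM, a small protein that enhances Wnt signaling. TCIM was at an FPKM of 11.47 and 6.93 in WT, against 0.08 and 0.09 in ZCCHC4 KO1, a log2 fold change of -3.20 (standard error 0.26) on log2(FPKM + 1) and of -5.61 with a pseudocount of 0.1. Its ZCCHC4 KO1 level was 0.924% of WT, where the next lowest share was 18.4% (FGFR1). Next to it in the order of log2 fold changes stood ASPH, HGSNAT, FGFR1 and PLEKHA2. TCIM, FBXO16, PLAT and POMK passed the filter through their WT values alone and TOX through its ZCCHC4 KO1 values alone. Among the remaining 109 members 103 were lower, with a median of -0.51.

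ASPH, a hydroxylase of aspartate and asparagine in the endoplasmic reticulum, was at 110.38 and 65.82 in WT, against 17.76 and 30.88 in ZCCHC4 KO1 (log2 fold change -1.82, standard error 0.34). HGSNAT, a lysosomal enzyme of heparan sulfate breakdown, was at 15.30 and 14.55 in WT, against 3.44 and 3.95 in ZCCHC4 KO1 (-1.76, standard error 0.18). FGFR1, a receptor for fibroblast growth factors, was at 5.25 and 6.34 in WT, against 1.05 and 1.08 in ZCCHC4 KO1 (-1.71, standard error 0.19). PLEKHA2, an adaptor that binds phosphoinositides, was at 15.89 and 15.76 in WT, against 4.21 and 5.71 in ZCCHC4 KO1 (-1.51, standard error 0.20). All were at 31.3% of WT or less, below the lower quartile of the stretch.

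The 3 members of 8p11-q13 with the highest mean FPKM were TRAM1, VDAC3 and RRS1. TRAM1, a translocation factor of the endoplasmic reticulum, was at 138.09 and 86.09 in WT, against 46.32 and 77.76 in ZCCHC4 KO1, 55.4% of WT. VDAC3, a channel of the outer mitochondrial membrane, was at 108.02 and 113.73 in WT, against 63.14 and 67.60 in ZCCHC4 KO1, 59.0% of WT with little spread within groups. RRS1, which assembles the large ribosomal subunit, was at 71.94 and 72.00 in WT, against 65.04 and 60.82 in ZCCHC4 KO1, 87.4% of WT, so that the 3 genes did not share 1 ratio.

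In all, 3 members of 8p11-q13 were higher in ZCCHC4 KO1. RDH10, a retinol dehydrogenase in the synthesis of retinoic acid, was at 22.90 and 21.39 in WT, against 47.18 and 59.96 in ZCCHC4 KO1 (log2 fold change 1.23, standard error 0.17), and this was the 1 member called higher at an FDR below 0.05. TOX, an HMG-box nuclear protein, was at 0.30 and 0.23 in WT, against 1.01 and 1.31 in ZCCHC4 KO1 (0.77, standard error 0.17). CEBPD, a transcription factor induced by inflammation, was at 35.39 and 39.12 in WT, against 36.94 and 44.26 in ZCCHC4 KO1 (0.12, standard error 0.15), with overlap between the groups. CEBPD turned to -0.04 with the GC trend removed, and to -0.01 without ZCCHC4 KO1 replicate 2.

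**Figure D4:**
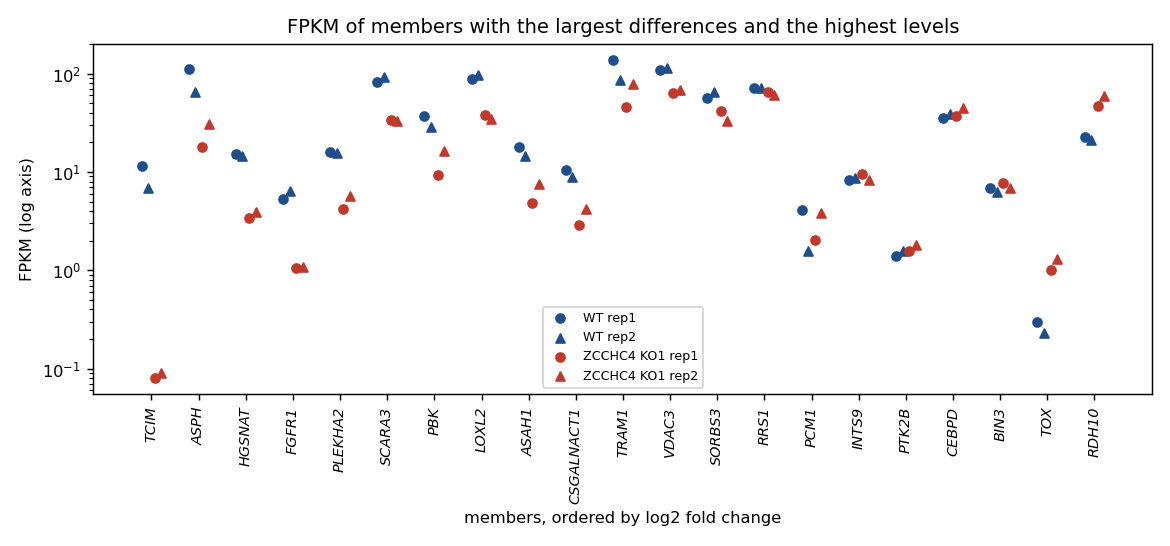
FPKM on a log axis (y axis) in each of the 4 libraries for the members of both stretches with the largest differences in either direction and the highest levels (x axis, ordered by log2 fold change). Circles are replicate 1, triangles replicate 2, WT blue and ZCCHC4 KO1 red. TCIM is at the left end, at 0.08 and 0.09 in ZCCHC4 KO1, and RDH10 at the right end, at 47.18 and 59.96.

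Members were then grouped by role, with 11 lists written by hand from general knowledge and covering 107 of the 114 members. The lists are broad and a few members stand at their margin, as FNTA, a subunit of protein farnesyltransferase, does in the mitochondrial list, and CSGALNACT1 does in that for lipid and related metabolism. COPS5 in the list for DNA repair, and ASPH and SCARA3 in that for secreted and matrix proteins, stand at the margin as well. So do TMEM68 and ARMC1 in the list for vesicle traffic, lysosomes and protein sorting. Members of each list were lower in the majority, and the medians ran from -0.19 to -0.94 beside -0.03 over all tested genes. List medians and counts are a description of these members, not a comparison with other genes of the same role. Over all 114 members, 64.9% were lower without overlap and 16.7% were called lower at an FDR below 0.05. Among all tested genes these shares were 28.5% and 4.48%. The stretches were selected for low values, so lower majorities within the lists are not read as results about the roles.

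All 19 members for vesicle traffic, lysosomes and protein sorting were lower (median -0.68), 16 of them without overlap between groups and 6 called at an FDR below 0.05. Besides HGSNAT, ASAH1 and TRAM1, the list holds GGH, the lysosomal gamma-glutamyl hydrolase that shortens folate chains, at 54.94 and 46.91 in WT, against 14.07 and 22.00 in ZCCHC4 KO1 (log2 fold change -1.48, standard error 0.23). ATP6V1H, RAB2A and TMEM68 were the other called members of this list, named after their values were seen, at 47.1, 49.3 and 42.1% of WT. The 7 secreted, matrix and related proteins were lower as well, 7 of 7 without overlap (median -0.71), with ASPH, SCARA3 and LOXL2 called. PLAT, counted among the 7, passed the filter through its WT values alone, which fixed its direction.

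In the mitochondrial list 8 of 8 members were lower (median -0.74), 6 without overlap. SMIM19, a small membrane protein, was at 5.46 and 4.89 in WT, against 1.37 and 2.35 in ZCCHC4 KO1, and MTFR1, a regulator of mitochondrial fission, at 32.44 and 27.40 and at 12.39 and 17.91. VDAC3 was the called member here. Lipid and related metabolism had 6 of 7 lower (median -0.94), with RDH10 the exception. LYPLA1, which removes palmitate from proteins, was at 70.06 and 51.98 in WT, against 23.65 and 40.47 in ZCCHC4 KO1 (log2 fold change -0.94, standard error 0.28). CSGALNACT1 and PLPP5, the latter named after its values were seen, were called lower.

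Of 18 kinases, phosphatases and signaling proteins, 17 were lower (median -0.37), 13 without overlap, and FGFR1, PLEKHA2 and SDCBP were called. POMK, counted among the 13, passed the filter through its WT values alone, which fixed its direction. SDCBP, the scaffold syntenin that serves exosome formation, was at 76.33 and 57.32 in WT, against 17.99 and 29.13 in ZCCHC4 KO1 (log2 fold change -1.49, standard error 0.26). PTK2B was the member above 0. Both solute carriers were below 0, but SLC20A2, a phosphate carrier, was at 7.31 and 7.54 in WT, against 7.34 and 7.30 in ZCCHC4 KO1, which is no separation of the groups, and its sign turned with median-ratio scaling, quantile normalization, GC removal and without WT replicate 2.

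DNA repair, replication and telomere factors numbered 9 members, all lower (median -0.57), 5 without overlap and 1 called. The called member was COPS5, the catalytic subunit of the COP9 signalosome, at 59.93 and 61.35 in WT, against 30.93 and 38.67 in ZCCHC4 KO1 (log2 fold change -0.79, standard error 0.16). GINS4, part of the replicative helicase, was at 14.72 and 14.91 in WT, against 7.29 and 8.74 in ZCCHC4 KO1 (-0.82, standard error 0.18). PRKDC, the DNA-dependent protein kinase that joins broken ends, was at 52.78 and 37.78 in WT, against 22.52 and 38.92 in ZCCHC4 KO1, so its groups overlapped. PRKDC is named for its role, after its values were seen.

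Mitosis, centrosome and cytoskeleton factors had 12 of 14 lower (median -0.35), 8 without overlap. After PBK, TACC1, a centrosomal coiled-coil protein, had the largest difference, at 9.29 and 6.09 in WT, against 2.37 and 4.19 in ZCCHC4 KO1 (log2 fold change -1.03, standard error 0.30). DPYSL2, which binds tubulin and was named after its values were seen, was the 1 called member of this list, at 7.49 and 7.14 in WT, against 2.73 and 3.48 in ZCCHC4 KO1. PBK was not called, with a standard error of 0.28 beside 0.20 for DPYSL2.

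RNA processing, transport and ribosome assembly factors had 8 of 9 lower (median -0.35), 5 without overlap and 0 called. XPO7, a nuclear export receptor, was at 29.78 and 26.35 in WT, against 13.52 and 19.64 in ZCCHC4 KO1 (log2 fold change -0.75, standard error 0.21). YTHDF3, a reader of N6-methyladenosine in mRNA, was at 16.04 and 9.78 in WT, against 5.37 and 9.77 in ZCCHC4 KO1 (-0.71, standard error 0.34). The higher ZCCHC4 KO1 value of YTHDF3 differed by 0.01 FPKM from the lower WT value.

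The smallest median differences were those of nuclear regulators. Of 8 transcription factors and coactivators 6 were lower (median -0.19), with 2 below and 1 above WT without overlap, and 0 called. The 1 above was TOX, which passed the filter through its ZCCHC4 KO1 values alone, and this fixed its direction. ZNF395 was at 6.95 and 7.05 in WT, against 3.63 and 3.42 in ZCCHC4 KO1 (log2 fold change -0.82, standard error 0.19), and TCEA1, an elongation factor of RNA polymerase II and the most abundant of the list, at 74.29 and 53.43 and at 30.15 and 49.77. All 6 chromatin regulators were below 0 (median -0.23), but the groups overlapped in all but 1 and 0 were called. KAT6A, a histone acetyltransferase, was at 4.06 and 2.94 in WT, against 1.72 and 3.05 in ZCCHC4 KO1. NSD3, a histone methyltransferase, was at 7.47 and 4.63 in WT, against 3.29 and 5.68 in ZCCHC4 KO1, and CCAR2, an inhibitor of the deacetylase SIRT1, at 37.64 and 42.35 and at 38.66 and 33.32.

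**Figure D5:**
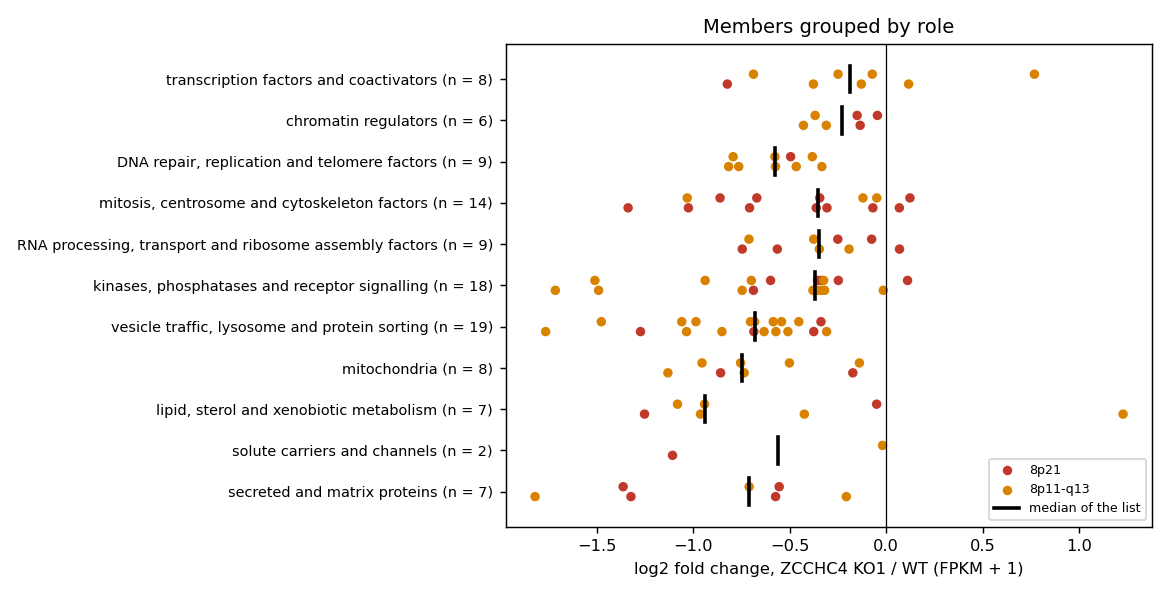
Log2 fold change between ZCCHC4 KO1 and WT on log2(FPKM + 1) (x axis) of the members of each of 11 role lists (y axis), with 8p21 in red, 8p11-q13 in orange and the median of each list as a black bar. The medians lie between -0.94 for lipid and related metabolism and -0.19 for transcription factors, and the points right of 0 are few, with RDH10 and TOX farthest out.

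The stretches differed from each other in GC content, which their choice did not use. The median GC content of the longest GENCODE transcript was 50.9% in 8p21 and 41.7% in 8p11-q13, beside 48.2% over all tested genes, and the median transcript length was 3923 and 4197 bases beside 3834. The median WT level in 8p11-q13 was an FPKM of 10.5, beside 11.1 over all tested genes, and that in 8p21 was slightly higher. GC content bears on these libraries, because the difference between replicate 2 and replicate 1 followed it with Spearman's rho of 0.71 in WT and -0.76 in ZCCHC4 KO1 across 10559 genes, which are not independent replicates and share the libraries. The median difference between replicates was larger for 8p11-q13, at -0.26 in WT and 0.44 in ZCCHC4 KO1 (replicate 2 minus replicate 1), than for 8p21, at -0.035 and 0.007.

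Members were lower in the majority both above and below the median level and the median GC content. The stretches were selected for low values, so these majorities are a description and no check. In 8p21 the more abundant members (mean FPKM above the median of the stretch) stood at a median of -0.37, all 22 of them lower, and the others -0.49 with 19 of 23 lower. In 8p11-q13 the more abundant members stood at -0.72 with 32 of 34 lower and the others at -0.38 with 34 of 35 lower, on a scale that understates differences of low values. Members of 8p21 above their median GC content were at -0.33, those at or below it at -0.56, and the corresponding values in 8p11-q13 were -0.53 and -0.58. With the GC trend removed, each ZCCHC4 KO1 library was lower than each WT library for 35 of 45 and 50 of 69 members, and for 32.7% of all tested genes.

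At the filter itself, TOX, NUDT18 and POMK were the members just inside, with a second highest FPKM of 1.01, 1.11 and 1.14, and PLAG1, EPHX2 and PHYHIP the nearest genes outside, at 0.98, 0.72 and 0.71. EPHX2, a soluble epoxide hydrolase, was listed at 0 in both ZCCHC4 KO1 libraries and at 0.72 and 1.29 in WT.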

How the data were processed

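The authors mapped the reads with Bowtie2 against GRCh38. RSEM then gave the estimates, which the authors deposited as FPKM per gene and library under Entrez identifiers. Versions, read filters and annotation are not given in the sources used here. The paper's supplement names the BGISEQ-500 platform and the labels an Illumina HiSeq. Every column was matched to a sample by its title. A RefSeq symbol was found for 16384 of 16658 genes, and gene starts were those of RefSeq on GRCh38.p14.

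Genes at an FPKM of 1 or more in at least 2 libraries were put on the log2(FPKM + 1) scale. They were fitted by limma 3.58.1, run in R 4.3.3 (lmFit, eBayes with a trend, Benjamini-Hochberg adjustment over 10726 genes). The fit was also run on simulated data with independent noise. Such data lack the deviations that genes share within these libraries, so that run does not bear on them. FPKM is not a count, so no count model was used, and the precision rests on 2 libraries per group. GC content came from GENCODE transcripts and covered 98.4% of the tested genes and all members.

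The members, role lists and tests were chosen with earlier results of these data known. Named were, per stretch, up to 5 members with the largest difference in either direction, the 3 most abundant, and the first and last, per list the 2 largest differences and the most abundant member, and the genes next to each bound. Alternatives were a pseudocount of 0.1, a minimum FPKM of 5 or none, median-ratio scaling, quantile normalization, a block on the replicate number, no trend in eBayes, and leaving out each library. A crossed pairing and removal of the GC trend by a natural spline with 4 degrees of freedom were added after seeing the data. No sequences of these genes are given.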

Additional observations from a re-analysis of the deposited data

How the results depend on the processing

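The stretches were selected on these same libraries, so a sign kept under the alternatives is a description and no support. The median log2 fold change stayed below 0 in both stretches under every alternative run. In 8p21 (-0.375) it was -0.308 with median-ratio scaling, -0.464 with a minimum FPKM of 5 and -0.236 with no filter, and ranged from -0.508 to -0.34 over the libraries left out. In 8p11-q13 (-0.571) it moved by less than the spread between replicates, except without the role-list members, was -0.351 with no filter, and ranged from -0.779 to -0.334 over the libraries left out, with -0.334 without ZCCHC4 KO1 replicate 1. The 7 members on no role list gave -0.294 in 8p21 (5 genes) and -1.8 in 8p11-q13 (2 genes, TCIM and PCMTD1), too few to say more. The median of all genes, -0.03, became 0.03 under median-ratio scaling and 0.04 under quantile normalization. Counts of members with each ZCCHC4 KO1 library below each WT library stayed within 1.5 times under the alternatives for which they were counted (median-ratio scaling, quantile normalization, GC removal, a minimum FPKM of 5 and no filter). In the other direction the count in 8p21 was 0, and became 2 under median-ratio scaling and 1 under no filter.

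Counts of called members depended on the processing, and so did the share of all tested genes called, given after each count. At the study's thresholds limma called 0 members (0.0746% of all genes), and 53 members had an unadjusted limma p under 0.05 (22.9%). At the study's thresholds 14 were called with median-ratio scaling (3.91%), 3 with quantile normalization (1.15%), 8 with the replicate block (1.68%) and 7 with GC removal (1.72%). The count also changed with a library left out, where the lone library of a group is assumed to vary like the other group. At an FDR below 0.05, 20 were called (5.98%), against 34 with median-ratio scaling (756 lower and 421 higher of 10726 genes), 52 with GC removal (20.1%) and 7 with no filter (2.07%). Without 1 library the count ranged from 11 (3.45%, without WT replicate 1) to 44 (14.9%, without ZCCHC4 KO1 replicate 2). The replicate block gave 19 (4.31%). The labels share only replicate numbers, and within-group deviations of same-numbered libraries had a Pearson correlation of -0.787 across genes. With the crossed pairing, 20 and 90 members were called at these thresholds, beside 4.92% and 49.4% of all genes, so nothing is read from these counts. For each of these counts the cause was not tested. Of the 40 members named by the rule, 5 changed sign under some alternative, none of them called, namely CEBPD, INTS9, MTUS1, PCM1 and SLC20A2. Other members named in the text were not part of this check. Depth is unknown, so no counting error can be given.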
